A study of Mus musculus with 198 samples.

Results

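The kidney of control mice was compared with the 8 other tissues taken from the same animals, in order to list the genes whose RNA was highest in kidney and to describe how they vary between mice. The comparison used 12 kidney libraries of 198 libraries in all. The mice were C57BL/6 animals of both sexes that had received a control antibody for 17 weeks, 6 female and 6 male, and no source used here states their ages. The other tissues were bone marrow, gonadal fat, heart, liver, lung, skin, spleen and subscapular fat, each from the same 12 mice, and each kidney was paired with the other tissue of its own mouse. The lung of mouse 68 and the heart of mouse 22 were left out, so those comparisons had 11 pairs. A gene was called a kidney gene when it was higher in kidney than in every one of the 8 tissues, each at an adjusted p under 0.05 in edgeR's quasi-likelihood test. That rule took 885 of 17210 genes tested, which is 5.14%. Kidneys of 10 further mice of the same strain, 5 female and 5 male, which had received an antibody against PAPP-A for 17 weeks, were used to look at the same genes in animals that had no part in choosing them. PAPP-A is a secreted protease that cleaves binding proteins of insulin-like growth factor.

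The kidney filters blood in the glomerulus and then recovers most of the filtrate along a tubule with successive segments. The proximal tubule takes back glucose, phosphate, amino acids and filtered protein and secretes organic anions and cations. The thick ascending limb, distal convoluted tubule and collecting duct then adjust salt, water, calcium and acid, and the organ also releases renin and the soluble form of klotho and sets the level of active vitamin D. Each segment is known by transporters and channels that it alone or mainly makes, so RNA from a whole kidney holds a mixture of segments. In such bulk RNA, fewer cells of a type and less RNA per cell cannot be told apart.

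Levels are given in CPM, counts per 1000000 counts of a library after TMM scaling, with 9 very abundant features, mostly ribosomal and mitochondrial, left out of the library total. These features held 47.39% to 98.26% of the counts in control libraries, which were made from total RNA. The cause of this range was not tested. The remaining usable counts ran from 315460 to 4694597 in the 12 control kidneys, with a median of 1287800, and from 201092 to 4694597 over all 106 control libraries used. A gene at 10 CPM thus rests on few counts in the shallowest libraries. The lung library of mouse 68 had a mean log2(CPM + 1) of 1.42 over the 5 lung epithelial markers, against 10.85 or more in every lung that was kept. With that lung and the heart of mouse 22 kept, the rule took 891 genes, of which 882 were among the 885.

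The 885 kidney genes made up a median of 19.22% of the usable counts in control kidney, with a range of 16.03% to 20.84%. The same genes made up a median of 3.49% in lung, 3.09% in gonadal fat and 1.61% in heart, the lowest of the 8 tissues. Of the 885, 824 were protein coding, 12 were lincRNAs and 19 were annotated as antisense, and 17 had no match in the annotation used. No source used here states whether the counting used strand, so reads of the antisense genes and of their partners cannot be told apart. The smallest of the 8 log2 fold changes of a kidney gene had a median of 1.15. It was at least 1 for 506 genes and at least 2, a 4-fold difference, for 274 genes, which are 1.59% of those tested. For 332 genes, 1.93% of those tested, the lowest control kidney lay above every one of the 94 other control libraries. These counts describe the rule and are no test of it. At the edge of the rule, Atp6ap2 (largest adjusted p = 0.0499, edgeR, against gonadal fat) and Tax1bp1 (0.0497, against bone marrow) were just inside. Sh3tc2 (0.0506, against lung) and Edem3 (0.0513, against liver) were just outside.

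Single comparisons called far more genes. Kidney was higher for 41.5% of the 17210 genes against bone marrow, 33.8% against skin, 33.6% against spleen and 29.4% against gonadal fat. It was higher for 27.1% against liver, 26.2% against lung, 25.5% against heart and 22.1% against subscapular fat. Among kidney genes the tissue with the next highest mean level was liver for 224 genes, lung for 148, gonadal fat for 117 and heart for 108. Spleen was next highest for 55 genes, the fewest.

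Short stretches of promoter sequence are shown for 5 kidney genes described below that carry a TATA box, the letters at which the general transcription machinery can place the start of RNA synthesis. Miox and Kap were among the 12 genes with the largest smallest fold change, Acsm2 was among the 10 with the highest level, and Kap, Acsm2 and Slc12a3 differed between the sexes. Ren1 is the gene of renin. The sequences are RefSeq's for GRCm38.p6, the build also called mm10, read on the strand of the gene from 5′ to 3′ and ending before RefSeq's start of transcription. GENCODE vM21, used for the gene coordinates elsewhere, begins 4 of these genes farther upstream, so that 7 bases of the Slc12a3 stretch, 75 of Miox, 95 of Kap and all 130 of Ren1 lie inside its gene model. Capitals mark the 6 letters TATAAA.
Miox, chr15:89334343-89334472, plus strand: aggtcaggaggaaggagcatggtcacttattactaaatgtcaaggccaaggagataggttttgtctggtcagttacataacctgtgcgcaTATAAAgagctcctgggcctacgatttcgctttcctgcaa
Kap, chr6:133853668-133853797, minus strand: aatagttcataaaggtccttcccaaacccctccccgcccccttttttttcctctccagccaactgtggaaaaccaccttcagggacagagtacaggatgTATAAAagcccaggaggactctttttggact
Acsm2, chr7:119554210-119554339, plus strand: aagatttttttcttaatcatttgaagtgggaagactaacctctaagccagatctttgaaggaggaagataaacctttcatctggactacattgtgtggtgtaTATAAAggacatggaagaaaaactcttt
Slc12a3, chr8:94329078-94329207, plus strand: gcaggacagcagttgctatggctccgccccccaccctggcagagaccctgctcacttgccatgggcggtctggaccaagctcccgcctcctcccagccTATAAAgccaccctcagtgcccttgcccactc
Ren1, chr1:133350544-133350673, plus strand: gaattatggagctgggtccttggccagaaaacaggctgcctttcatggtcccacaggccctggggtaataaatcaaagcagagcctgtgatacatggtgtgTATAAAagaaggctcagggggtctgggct
The capitals end 22 bases before the RefSeq start in Acsm2, 23 in Ren1, 25 in Kap, 26 in Slc12a3 and 34 in Miox.

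Promoters of 300 bases, from 250 before to 50 after the start, were found by symbol for 654 of the 885 kidney genes and for 11160 of the 17210 genes tested. The letters TATAAA, searched on both strands, stood in 61 of the 654 promoters (9.33%) and in 29 of the 199 promoters of genes at least 4-fold higher in all 8 tissues (14.6%). They stood in 8.62% of the promoters of all genes tested and in 14.2% of all 27025 promoters of the table. The letters CAAAGTCCA, part of the site of HNF4, stood in 0.917% of kidney gene promoters and 0.502% of those of all genes tested. The letters TCAAGGTCA, bound by estrogen-related receptors, stood in none and in 0.26%. The motifs do not overlap one another. A match of letters is a description and not a bound site.

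The largest differences were those of proximal tubule and thick limb genes. Miox, the enzyme that opens the ring of myo-inositol and begins its breakdown, was at 1099 CPM in the lowest control kidney, 1365 in the median and 1655 in the highest. The highest other control library was a skin of mouse 61 with 10.9 CPM, and 74 of the 94 held no count. Its smallest log2 fold change was 11.07 ± 0.41 (SE), against skin, where it rests on 6 counts. The gene lies on chromosome 15 from 89334398 to 89337015, plus strand (mm10, GENCODE vM21). Mep1a, a subunit of the brush border protease meprin, ran from 354.2 to 2468 CPM in kidney and reached 4.51 CPM elsewhere, and its smallest log2 fold change was 10.98 ± 0.40. Slc6a18, a neutral amino acid transporter, Slco1a6, an organic anion transporter, and Fut9, a fucosyltransferase, had smallest log2 fold changes of 10.08, 9.26 and 9.43. Tmem174 had a mean of 358.3 CPM in kidney and 2 counts in all in the 12 livers. Fitted fold changes this large depend on the few counts of the other tissue.

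**Figure D1:**
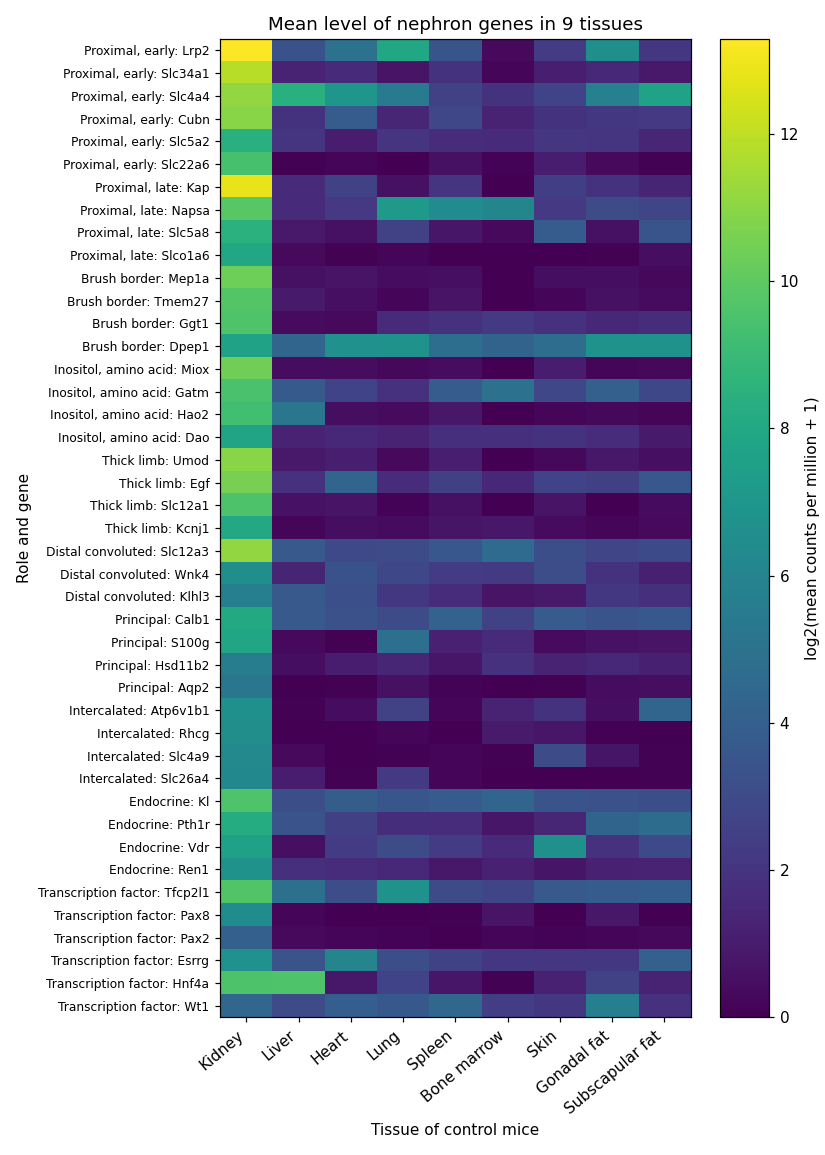
Mean level of nephron genes (rows, with their role) in the 9 tissues of control mice (columns), as log2 of the mean CPM plus 1. Kidney is the brightest column for all rows but Hnf4a, which liver matches, and Wt1, which is brighter in gonadal fat and as bright in spleen.

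The highest CPM among kidney genes belonged to Lrp2 and Gpx3. Lrp2, the endocytic receptor megalin of the proximal tubule, had 10011 ± 2417 CPM (SD, n = 12), and Gpx3, the secreted glutathione peroxidase, 9593 ± 1285. Per kilobase of exon the order was another, with Kap at 10385 CPM per kb, Gpx3 at 5291, Cyp4b1 at 1013 and Lrp2 at 599.4. Slc27a2, a fatty acid transport protein and acyl-CoA synthetase, was 1.07 ± 0.17 above liver on the log2 scale. Acsm2, a medium-chain acyl-CoA synthetase, was 8.42 ± 0.28 above bone marrow, its nearest tissue.

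All 10 genes listed for the early proximal tubule were kidney genes, each at least 4-fold higher in all 8 tissues. Slc34a1, the main phosphate transporter of the apical membrane, was at 3103 CPM in the lowest kidney, 3740 in the median and 4521 in the highest. No other control library had more than 13.9 CPM. Cubn, which binds filtered protein together with megalin, ran from 1064 to 2599 CPM and was at most 22.9 elsewhere. Slc5a2, the glucose transporter SGLT2, ran from 239.4 to 541.7 CPM, with 8.88 as the highest value elsewhere. Slc4a4, the bicarbonate exporter of the basolateral membrane, had the smallest difference of the list, 2.70 ± 0.15 above liver. Kidney and other tissues did not overlap for any of these 4 genes.

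Of 9 genes listed for the late proximal tubule, 5 were kidney genes. They were Kap, the kidney androgen-regulated protein, the carrier genes Slc5a8, Slc22a19 and Slco1a6, and Napsa, an aspartic protease. Slc22a7 and Slc22a30 passed against every tissue but liver, with log2 fold changes of -0.10 ± 0.46 and -1.40 ± 0.43 against it. Slc7a13, the cystine carrier of this segment, was too low in females to pass the filter on counts in the comparison of tissues and was not tested there. It had 607.6 to 1244 CPM in the 6 male kidneys, at most 1.94 CPM in the 6 female kidneys and at most 8.17 CPM in any other tissue.

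Some transporters of drugs and organic ions did not pass against liver. Of 11 listed, 10 were tested and 6 were kidney genes. Slc22a6 and Slc22a8, the organic anion transporters OAT1 and OAT3, had 347.5 to 1147 CPM and 438.5 to 814.1 CPM in control kidney and at most 7.28 and 5.1 CPM elsewhere. Slc22a12, the urate transporter, and Slc22a2, a cation transporter, had smallest log2 fold changes of 9.14 and 7.20. Slc47a1, which extrudes cations into urine and bile, was 1.59 ± 0.13 above liver. Slco1a1 and Abcc2 passed against every tissue but liver. Over all genes named Slc22, 9 of 20 tested were kidney genes. Over all genes named Slc with a number, 76 of 297 were, or 25.6%.

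Most listed enzymes of the tubule were not kidney genes, and many did not pass against liver alone. Of 13 listed enzymes of amino acid and inositol metabolism, 4 were kidney genes, namely Miox, Dao, Hao2 and Gatm, which makes the precursor of creatine. Of the 9 others, 8 failed against liver alone. They include Ass1, argininosuccinate synthase (log2 fold change against liver 0.19 ± 0.15). Of 10 genes of gluconeogenesis and ammonia formation, 1 was a kidney gene. G6pc, the glucose-6-phosphatase, differed from liver by -0.05 ± 0.16, and 6 of the 9 others failed against liver alone. Pck1, which makes phosphoenolpyruvate, had 2885 ± 977 CPM in kidney and 2206 ± 1359 in subscapular fat, the only tissue it did not pass (adjusted p = 0.171, edgeR). None of 10 genes of fatty acid oxidation was a kidney gene. Of 11 brush border peptidases, 5 were, with Ggt1, gamma-glutamyltransferase, 7.52 ± 0.28 above bone marrow and Dpep1 only 0.86 ± 0.14 above gonadal fat. Ace, the angiotensin converting enzyme, failed against lung alone, where it was higher by 2.25 on the log2 scale (kidney against lung -2.25 ± 0.27).

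Of 8 genes listed for the thick ascending limb, 7 were tested and 6 were kidney genes. Umod, uromodulin, the most abundant protein of normal urine, was at 542.3 CPM in the lowest kidney, 2059.6 in the median and 3389 in the highest, and at most 7.38 CPM elsewhere. It lies on chromosome 7 from 119462711 to 119479282, minus strand. Slc12a1, the salt transporter blocked by loop diuretics, ran from 196.8 to 1207 CPM, and Kcnj1, the potassium channel that recycles its substrate, was 8.31 ± 0.22 above spleen. Egf, whose precursor is made in distal segments, was at 1529 CPM and 6.30 ± 0.27 above heart. Ptger3, a prostaglandin receptor, was lower in kidney than in subscapular fat (-1.22 ± 0.29, adjusted p = 0.00262, edgeR).

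The distal segments were also found. Slc12a3, the salt transporter blocked by thiazides, was at 759.5 CPM in the lowest kidney, 1900.7 in the median and 4488 in the highest, against at most 35.2 CPM elsewhere. Its regulators Wnk4 and Klhl3 were kidney genes too, while Trpm6, a magnesium channel, was higher in lung (-0.68 ± 0.14, adjusted p = 0.000591, edgeR). Of 11 genes of connecting tubule and principal cells, 10 were tested and 5 were kidney genes. Aqp2, the water channel moved by vasopressin, ran from 20.67 to 59.55 CPM and was at most 1.64 CPM elsewhere. Calb1 and S100g, which bind calcium, were 4.10 ± 0.25 above spleen and 3.11 ± 0.22 above lung. Scnn1b and Scnn1g, subunits of the epithelial sodium channel, failed against lung alone, and Aqp3 failed against skin alone (-2.80 ± 0.21). Of 11 genes of intercalated cells, which secrete acid or base, 10 were tested and 7 were kidney genes. They include Rhcg, an ammonia channel, with 47.23 to 138.6 CPM, and Slc26a4, the chloride and bicarbonate exchanger pendrin, 4.43 ± 0.28 above lung. Atp6v1b1, a subunit of the proton pump, was 3.83 ± 0.69 above subscapular fat and overlapped with it, since 1 library of that fat had 72.4 CPM. Of 21 tested genes named for subunits of this pump, 11 were kidney genes, 3 of them at least 4-fold higher in all 8.

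**Figure D2:**
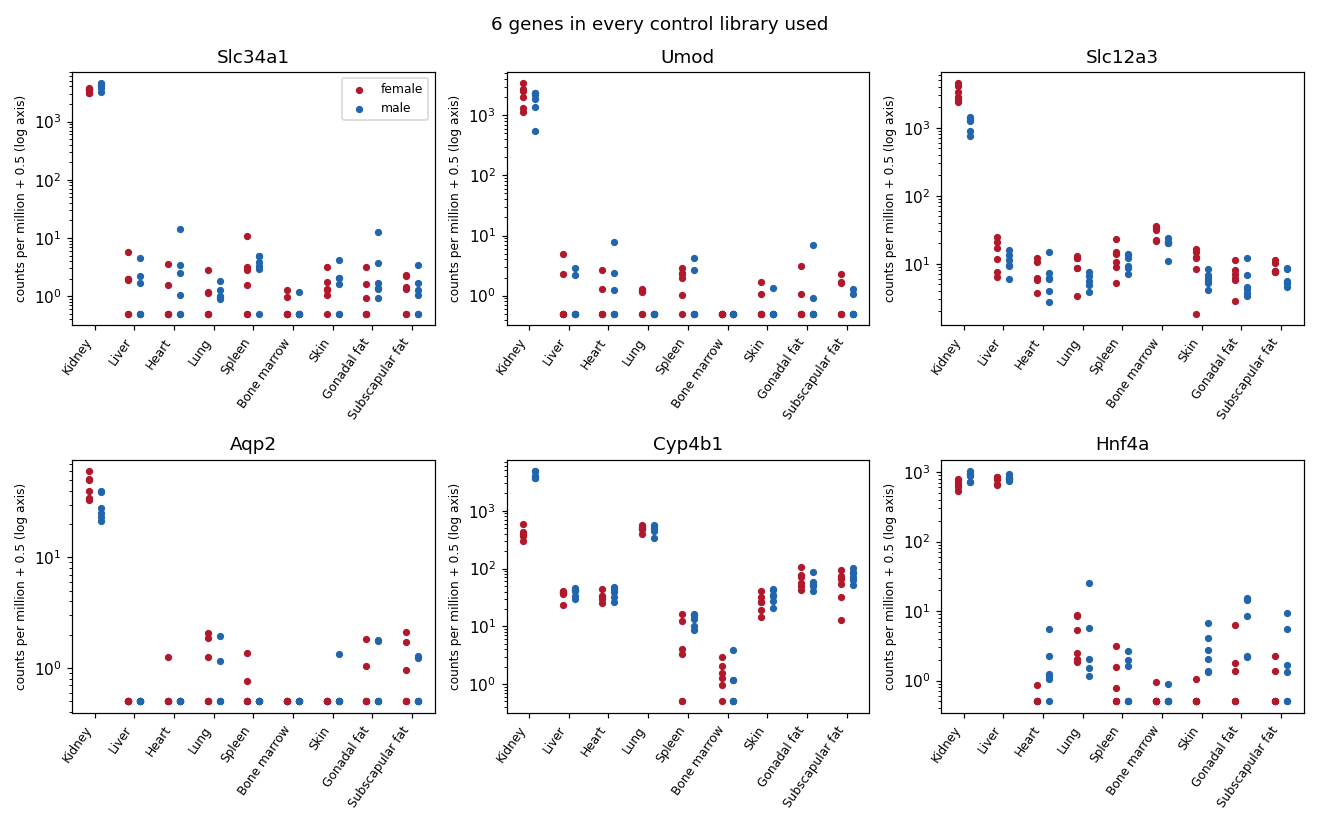
CPM plus 0.5 on a log axis in every control library used, by tissue (x axis) and sex (colour), for 6 genes, 1 point a library. Slc34a1, Umod, Slc12a3 and Aqp2 do not overlap with other tissues, female kidneys overlap with lung for Cyp4b1, and kidney overlaps with liver for Hnf4a.

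The podocyte, the cell that closes the glomerular filter, was hard to see by this rule. Of 9 podocyte genes, 1 was a kidney gene. Podxl, which is also made by endothelium, was at 314.2 CPM in kidney and differed from lung by 0.04 ± 0.17. Nphs1 did not pass against gonadal fat, skin or spleen. Wt1 was higher in gonadal fat than in kidney (-1.42 ± 0.26, adjusted p = 0.000149, edgeR), with 24.96 to 97.45 CPM there and 10.47 to 44.75 CPM in kidney.

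All 6 tested genes of the endocrine and vitamin D list were kidney genes. Ren1, renin, ran from 54.4 to 179.6 CPM and was 5.40 ± 0.25 above liver. Kl, klotho, the co-receptor of FGF23, ran from 591.5 to 909.0 CPM and was 5.35 ± 0.14 above bone marrow. Cyp24a1, which inactivates vitamin D, was 7.99 ± 0.33 above subscapular fat, and Vdr, the vitamin D receptor, 0.89 ± 0.13 above skin. Casr and Pth1r, the receptors for calcium and for parathyroid hormone, were 4.95 ± 0.59 and 4.14 ± 0.39 above subscapular fat. Cyp27b1, which activates vitamin D, and Epo, erythropoietin, did not pass the filter on counts. Cyp27b1 ran from 1.32 to 14.16 CPM in control kidney, and Epo had no count in any male kidney and at most 1.01 CPM in a female one.

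Of 21 transcription factors of the nephron, 19 were tested and 11 were kidney genes. Pax8 and Pax2, which direct the formation of the nephron, were 6.78 ± 0.45 above gonadal fat and 5.38 ± 0.45 above heart, but Pax2 was low, at 4.72 to 35.93 CPM. Tfcp2l1, a factor of distal segments, was the most abundant at 805.9 CPM and 2.86 ± 0.11 above lung. Pou3f3 was 4.43 ± 0.18 above spleen. Hnf4a, a factor of proximal tubule and hepatocyte, had 529.1 to 1029 CPM in kidney and 649.0 to 925.8 CPM in liver and did not differ detectably between them (-0.06 ± 0.12, adjusted p = 0.735, edgeR). Of 18 Hox genes tested, 7 were kidney genes. Of 286 genes named Zfp with a number, 7 were.

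Genes higher in kidney than in 7 of the 8 tissues numbered 1080, and the tissue that did not pass was liver for 502 of them. Lung was that tissue for 158 genes, heart for 133, skin for 121, bone marrow for 59, subscapular fat for 43, spleen for 40 and gonadal fat for 24. Of the 502, 283 were called lower in kidney than in liver, as were 66 of those of lung, 64 of skin, 51 of heart and 23 of bone marrow against their tissue. Among those that did not pass against liver, Apob, the protein of large lipoproteins, had 1518 ± 535 CPM in kidney (SD, n = 12) and was lower there than in liver by 4.25 ± 0.28 on the log2 scale (kidney minus liver -4.25). Abca3, a lipid transporter, had 587.6 ± 73.6 CPM in kidney and 551.8 ± 82.2 in lung. Mdh1, malate dehydrogenase, was lower than in heart (-1.11 ± 0.18), and Oxct1, which uses ketone bodies, differed from heart by -0.38 ± 0.19 (adjusted p = 0.114, edgeR). Slc6a6, the taurine transporter, was lower than in skin (-0.47 ± 0.16, adjusted p = 0.0141, edgeR). Lrrk2, a kinase, was lower than in bone marrow in all 12 mice (-0.43 ± 0.12, adjusted p = 0.00269).

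**Figure D3:**
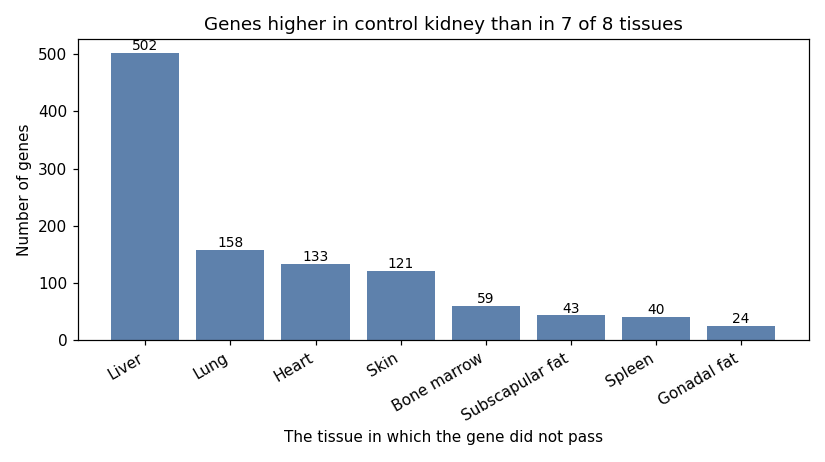
Number of genes (y axis) that were higher in control kidney than in 7 of the 8 tissues, by the tissue in which they did not pass (x axis). Liver holds 502 of the 1080 genes, more than 3 times any other tissue.

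In mice given the antibody against PAPP-A, 784 of the 885 kidney genes (88.6%) were again higher in kidney than in all 8 tissues. The rule took 865 genes in those mice (5.03% of 17210), so the 784 are 90.6% of that list. Among the 101 others, 77 passed against 7 tissues. The smallest log2 fold change was above 0 for 882 of the 885. For Miox, Mep1a, Umod and Slc34a1 it was 9.34, 8.54, 8.46 and 9.56. Atp6ap2, just inside the rule in controls, was not called against all 8 in treated mice.

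Antibody treatment moved none of the 885 kidney genes past the threshold in kidney (edgeR, adjusted p of at least 0.901). Of the 11437 genes tested, 0% were called and 475 had an unadjusted p under 0.05 (edgeR). These included 69 of the 885 kidney genes (7.8% against 4.2% of all). Kidney genes had the higher level, with a median of 92.1 CPM in control kidney against 33.6 over the genes tested for sex. The part of this in the share of 7.8% was not tested. The median log2 fold change, treated minus control, was -0.004 over kidney genes and -0.002 over all, and 432 of the 885 were above 0. The smallest p among kidney genes belonged to Aoah, an enzyme that inactivates endotoxin, with -0.40 ± 0.09 (SE). Its level ran from 84.24 to 148.8 CPM in the 12 control kidneys and from 50.45 to 117.6 CPM in the 10 treated ones, so the groups overlapped. DESeq2 called it (-0.39 ± 0.09, adjusted p = 0.0371) and 1 gene that is no kidney gene, Aacs, while limma-voom called none. Slc5a2 and Cyp4b1 had -0.42 ± 0.12 and -0.33 ± 0.10, and St8sia1, Rbm47 and Ppp1r1b, the 3 with the smallest p among those higher, had 0.45 ± 0.13, 0.31 ± 0.10 and 0.59 ± 0.19, each with an adjusted p above 0.9 in edgeR's test.

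Kidney genes differed between the sexes. In control kidney 186 of the 885 (21%) were higher in males and 102 (11.5%) higher in females, against 7.13% and 6.68% of the 11592 genes tested (edgeR, adjusted p under 0.05, 6 against 6). Kidney genes were also more abundant than the genes tested, with a median of 92.1 against 33.6 CPM, and the part of this in the count of calls was not tested. Their median absolute log2 fold change was 0.35, against 0.24 over all genes tested. Of the 186 male and 102 female genes, 50 and 22 differed at least 2-fold. The 6 male and 6 female kidneys did not overlap for 131 of the 186 and 37 of the 102. These counts cover the called kidney genes alone. Without the same counts over all genes tested, they describe no trait particular to kidney genes. In treated kidney, with 5 against 5 other mice, 187 and 106 of 876 tested kidney genes were called, against 6.89% and 5.52% of all genes. Of the control calls, 137 of 186 in males (73.7%) and 64 of 102 in females (62.7%) were called in the same direction in treated mice, and none in the opposite direction. The shared genes are 73.3% and 60.4% of the calls in treated mice.

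The 10 kidney genes with the largest fold in males included several enzymes and a carrier. Cyp4b1, a cytochrome P450, was at 302.7 CPM in the lowest female, 382.8 in the median and 578.0 in the highest, and at 3673 to 4848 in males. Males were higher by 3.29 ± 0.14 on the log2 scale (adjusted p = 5.93e-10, edgeR), with no overlap. Against lung, where it had 334.3 to 558.5 CPM, Cyp4b1 was 1.25 ± 0.50 higher in kidney over both sexes but -0.28 in females alone. Ugt2b38, a glucuronosyltransferase, ran from 31.59 to 92.56 CPM in females and from 701.2 to 1297 in males. Slc22a28, an organic anion carrier, ran from 18.43 to 54.75 in females and from 235.8 to 297.0 in males. Acy3, which removes acetyl groups from amino acids, ran from 152.7 to 380.8 and from 1491 to 2032. Acsm2, which was not among the 10, ran from 1137 to 1468 and from 4069 to 5617. Each of these 4 genes was called with an adjusted p of at most 8.33e-08 (edgeR) and without overlap. Kap was more variable in females, which ran from 97.52 to 3006 CPM with a median of 1419, while males ran from 10771 to 16942 (3.15 ± 0.62, adjusted p = 0.00321). Nat8f5, Ccl28, Cndp2, Mogat1 and Ces2c were also among the 10 largest, with log2 fold changes of 3.75, 3.04, 2.50, 2.14 and 1.98.

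Ugt1a2, another glucuronosyltransferase, was the gene highest in females. It ran from 585.1 to 1775 CPM in females and from 0 to 14.17 CPM in males (male minus female -7.21 ± 0.38, adjusted p = 4.79e-09, edgeR). In males alone it was below liver (-1.45 on the log2 scale). Genes of the Ugt1a, Ugt2b, Slc22a, Acsm and Nat8 families have close relatives, and members of the Ugt1a locus share exons, so reads can be divided among relatives in counting and these values are uncertain to that extent. Slc12a3 ran from 2386 to 4488 CPM in females and from 759.5 to 1416 in males, without overlap (-1.59 ± 0.24, adjusted p = 0.000381). Klhl3, its regulator, was at -1.38 ± 0.20, Prom1, a membrane glycoprotein, at -1.55 ± 0.17, and Abcc4, an export pump, at -1.48 ± 0.17. Gsta2, Ankrd24, Kcnj10 and Slc4a9 were at -1.37, -1.31, -1.23 and -1.18, and Ceacam2 at -1.76 ± 0.54 with overlap between the sexes. The call of Ceacam2 was lost with DESeq2, with limma-voom and without any 1 of mice 37, 45, 61, 68, 71, 4, 18 and 20 (-1.51 to -1.89 over these settings).

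**Figure D4:**
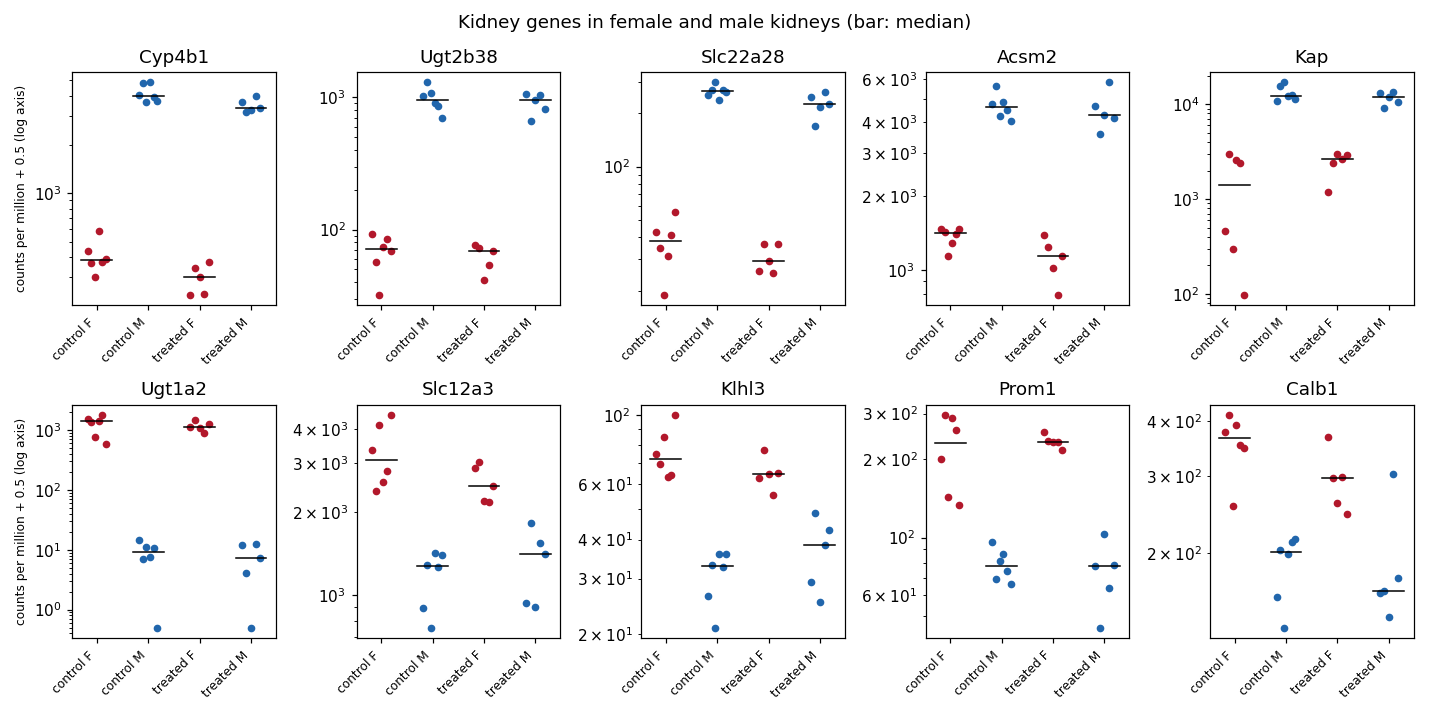
CPM plus 0.5 (log axis) of 10 kidney genes in each control and treated kidney, by sex (F, M), 1 point a mouse with a bar at the median. In control kidney the sexes do not overlap for any of the 10, and the same side is higher in treated kidney.

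The sexes were then compared by segment. Of 26 tested genes listed for the distal convoluted tubule, connecting tubule, principal cells and intercalated cells, all 26 had a log2 fold change below 0 (male minus female) and 16 were called higher in females, none in males. Their median was -0.87, against -0.02 over all genes tested. Calb1 ran from 255.4 to 412.5 CPM in females and from 134.6 to 214.4 in males (-0.998 ± 0.133, adjusted p = 0.000144, edgeR). Rhcg ran from 96.49 to 138.6 and from 47.23 to 83.99 CPM (-0.96 ± 0.17, adjusted p = 0.00132). In treated kidney 24 of 24 tested genes of these lists were below 0 and 10 were called. Podocyte genes were below 0 for 9 of 9 in control kidney, with 4 called and a median of -0.57, and for 9 of 9 in treated kidney, with none called. Without the kidneys of mice 3, 37 and 55, the highest in adipocyte markers, all 9 stayed under 0 with a median of -0.61 and none was called. Without mice 11 and 22, the shallowest control kidneys, all 9 were under 0 with a median of -0.40 and 1 was called.

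Listed brush border peptidases leaned to males, with 5 of 11 higher in males and 1, Dpp4, in females, and a median of 0.50. Mep1a ran from 354.2 to 1096 CPM in females and from 1268 to 2468 in males (1.25 ± 0.24, adjusted p = 0.00253, edgeR), and Ggt1 was 1.19 ± 0.13 higher in males. The early proximal list had 1 gene higher in males, Slc22a6 (1.32 ± 0.11), and 3 in females, Slc22a8 (-0.57 ± 0.13), Slc34a3 (-0.63) and Slc5a12 (-0.42). The late proximal list had 4 genes higher in males, Slc7a13 (10.05), Slc22a30 (3.98), Kap (3.15) and Slc5a8 (1.70), and 1 in females, Slc22a7 (-2.20). Slc22a19 (-1.37 ± 0.61), Napsa (-0.13 ± 0.46) and Slco1a6 (0.33 ± 0.31) were not called. The mean log2(CPM + 1) of the list ran from 7.13 to 8.85 in the 6 male kidneys and from 4.41 to 6.85 in the 6 female ones, without overlap. This mean is not a difference shared by all members. In females Kap and Napsa had the highest means of the list, 1475 and 944 CPM, and weigh most in its sum. Among the females, mice 3, 11 and 22 stood apart, with summed levels of this list of 1256.6, 839.8 and 477.3 CPM against 4604 to 5668 in the other 3. The same 3 had the highest summed levels of the distal convoluted list among control kidneys, 3635, 4444 and 4880 CPM. Mice 11 and 22 had 315460 and 528802 usable counts, the fewest of the control kidneys, and mouse 3 had 4694597, the most. Without mice 11 and 22, 175 and 101 kidney genes were called higher in males and in females. Over all genes tested, 873 and 740 of 12666 were called in that fit. The distal lists had 26 of 26 genes below 0 there, with a median of -0.69 and 12 called. Of the 11 organic ion transporters 5 were higher in males and 2 in females. The listed genes with the largest differences were Slc7a13 and Slco1a1, neither of them a kidney gene, which were higher in males by 10.05 and 9.78 on the log2 scale.

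**Figure D5:**
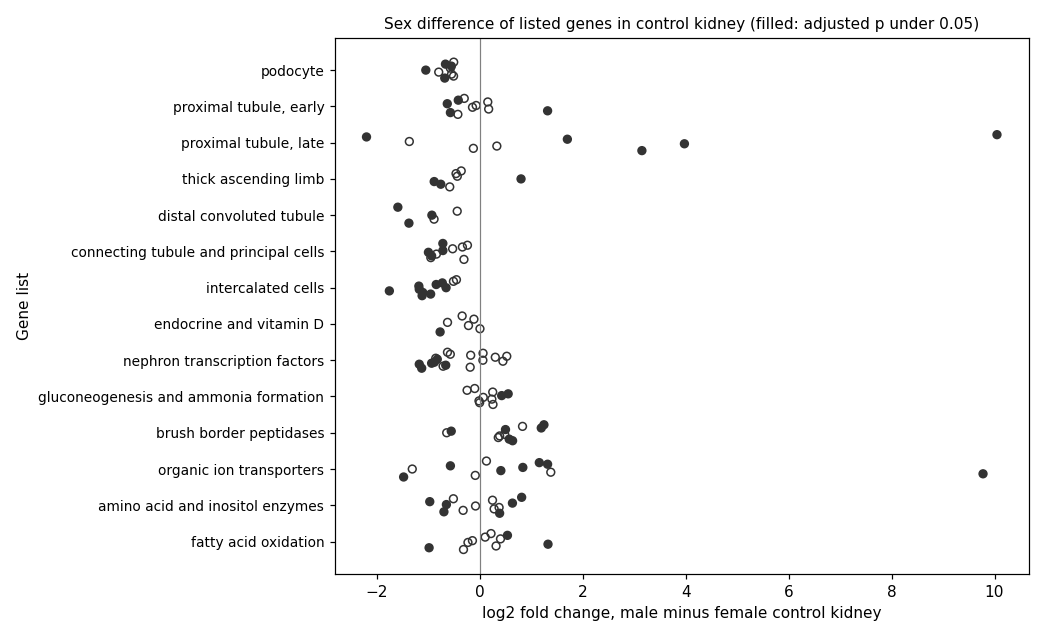
Log2 fold change between male and female control kidney (x axis, above 0 higher in males) of each tested gene of the 14 kidney lists (y axis), with filled points where the adjusted p was under 0.05. All points of the distal convoluted tubule, connecting tubule and principal, intercalated and podocyte lists lie below 0.

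Markers of other cells were looked at in the same kidneys. The 5 adipocyte markers had a mean log2(CPM + 1) of 2.94 to 7.08 in male control kidneys and 0.63 to 5.38 in female ones, with summed levels of 43.4 to 805.2 and 7.90 to 222.4 CPM. The highest were mouse 37 (7.08), mouse 55 (6.00) and mouse 3 (5.38). The 4 markers of exocrine pancreas were at 0 in every control kidney but that of mouse 37, where they summed to 8.66 CPM. The 3 fibroblast markers summed to 204.5 to 1327 CPM in males and 165.8 to 744.3 in females. The 7 hepatocyte markers summed to 66.1 to 144.5 CPM in males and 47.4 to 65.0 in females, without overlap. The sum does not speak for each marker. Alb overlapped, with 18.5 to 52.6 CPM in males and 23.7 to 39.4 in females. Fgb had a lower mean in males, 3.43 against 6.42 CPM. Only 2 of the 7 had enough counts for the sex test, and 1 was called higher in males. Urothelial markers summed to at most 4.98 CPM and the 3 endothelial markers to 230.2 to 385.2 CPM in males and 233.0 to 331.6 in females. Without the kidneys of mice 3, 37 and 55, kidney genes numbered 792, of which 773 were among the 885. Of the 885, 124 and 48 were called higher in males and in females, against 186 and 102 with those kidneys. Calls over all genes tested fell too, to 527 and 375 of 11343 from 827 and 774 of 11592. That sex fit lacked the males 37 and 55 and the female 3. The distal lists then had 26 of 26 genes below 0 with a median of -0.67 and 7 called. All 20 genes named above as the 10 largest in each sex kept their direction there with adjusted p values up to 0.049 (edgeR). Fewer mice and less adipose RNA cannot be told apart in that fit. The part of adipose, fibroblast and hepatocyte RNA in the differences between the sexes was not tested.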

How the data were processed

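Stranded total RNA libraries were prepared with 12 cycles of PCR on 100 ng of RNA taken from whole tissues, as the labels' protocols say. The submitters' processing notes name FastQC 0.11.5, Salmon and mm10, and no source used here states the annotation, the rounding of the estimates or whether strand was used. The authors deposited whole-number counts for 56332 identifiers, which were summed over 55616 gene names. In R 4.3.3 with edgeR 4.0.16, 9 features each holding at least 0.9% of counts on average were left out of library sizes, and libraries were scaled by TMM. One filterByExpr by tissue over the control libraries left 17210 genes. Each kidney comparison was fitted with mouse and tissue as terms and tested with the quasi-likelihood F-test, and p-values were adjusted over all genes by Benjamini-Hochberg. Same-numbered samples are tissues of the same mouse, per the labels, so the fits were paired. Deviations from the tissue mean correlated at 0.056 on average over 94 pairs of a kidney with another tissue of its own mouse and at -0.005 between mice. Sex was tested within kidney and treatment within kidney with sex as a term. DESeq2 1.42.0 and limma 3.58.1 were alternatives. Counts were also simulated, with the same fixed spread (dispersion) for every gene. On them the paired fit against lung recovered 76% of 2-fold and 99% of 4-fold changes over 12513 genes. The sex fit recovered 35% and 99% over 11592 genes, and the treatment fit 70% and 100% over 11437 genes. There were 4, 6 and 11 false calls among the unchanged genes. Real genes differ in spread, so these shares do not measure power or error on the real counts.

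Coordinates and exon lengths come from GENCODE vM21, in which 47462 of 47712 Ensembl identifiers were found. The genes named are the 12 kidney genes with the largest smallest fold change at 10 CPM or more, the 10 most abundant, up to 4 of each list, 16 fixed genes, the 10 with the largest fold in each sex at 5 CPM or more, the 3 with the smallest treatment p in each direction, the 3 most abundant shared with each tissue, and those nearest the threshold; symbols with a number only are left out. Some genes that this rule or the lists name are not reported here. Other listed genes, and Aacs, were named after their values were seen. The rule, the lists and the gene families were chosen with earlier results of these data known. In treated mice 1 heart, 1 gonadal fat and 1 skin library were left out. Mice are separate animals per the labels. Intervals and floors for single shares were not needed, and PCR reads carry counting error beside the spread between mice.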

Additional observations from a re-analysis of the deposited data

Results flagged for a closer look

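For the 25 genes named for sex or treatment, each of the 4 groups of 5 or 6 kidneys was searched for a mouse that stood apart, by the gap to its nearest neighbour against the range of the group on the log2(CPM + 1) scale. Of 100 groups 9 held such a mouse. Chance would mark about 1 in 20 of independent groups. These groups share the same mice and their genes were picked from these data, so the 9 cannot be read against that rate.

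In treated female kidneys, mouse 6 was the lowest for 3 genes. It had 232 CPM of Acy3, where the others had 370 to 399, 54.4 CPM of Ceacam2, where the others had 130 to 148, and 1170 CPM of Kap, where the others had 2410 to 3010.

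In control male kidneys, mouse 71 had 100 CPM of Aoah, where the others had 132 to 149, and 0 CPM of Ugt1a2, where the others had 6.53 to 14.2. Mouse 45 had 120 CPM of Ccl28, where the others had 30.7 to 47.4. Mouse 55, whose kidney was high in adipocyte markers, had 23.4 CPM of Slc4a9, where the others had 46.3 to 63.1. In control females, mouse 11, whose kidney had the fewest usable counts of the controls (315460), had 55.3 CPM of Cndp2, where the others had 108 to 149. In treated males, mouse 62 had 384 CPM of Ces2c, where the others had 296 to 309.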

How the results depend on the processing

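The number of kidney genes was 896 without the mouse as a replicate block (858 of the 885 among them), 877 with DESeq2's size factors, 872 with DESeq2, 899 with limma-voom, 1117 with no filter on low counts, 854 with the abundant features kept, 694 in females alone, 813 in males alone and 877 in a fit of all 9 tissues together. It was 506 with a log2 fold change of at least 1 in all 8 and 274 with at least 2. Without the block, kidney was higher for 7305 genes against bone marrow, 5254 against gonadal fat, 4574 against heart, 4905 against liver, 4733 against lung, 6097 against skin, 5903 against spleen and 3841 against subscapular fat, and 781 kidney genes were called again in treated mice. Every count of calls over the kidney genes stayed within 1.5 times its value under each alternative run, apart from the stricter fold changes, the count of female genes without the kidneys of mice 3, 37 and 55 (48 against 102), and the treatment call in kidney (1 with DESeq2 against 0). Counts within gene lists moved more: without mice 3, 37 and 55 the female calls were 7 against 16 in the distal lists, 2 against 9 in the intercalated, 2 against 4 in the connecting tubule and 0 against 4 in the podocyte list. Over all genes tested, the female calls of that fit were 375 of 11343, against 774 of 11592. The alternatives without mice 3, 37 and 55, without mouse 37 (873 kidney genes) and without mice 11 and 22 (923, with 854 of the 885) were chosen after seeing the data. Leaving out each mouse in turn gave 143 to 183 kidney genes higher in males and 72 to 96 higher in females. Of single genes, Cyp4b1 fell below lung in females alone (-0.28), Ugt1a2 below liver in males alone (-1.45) and Atp6ap2 below 0 in males alone (-0.047). Calls against all 8 tissues were lost without a change of sign for 10 named genes, 17 times in all and 10 times in 1 sex alone (Kcnj10 0.001 and Abcc4 0.27 in males), and for Nat8f5 also without the block (0.89) and with DESeq2 (1.04). The cause was not tested. RLE size factors moved the median over all genes by -0.08 to 0.06 on the log2 scale. Depth limits low genes such as Pax2, Cyp27b1 and Epo.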

Other observations

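A few genes known as products of kidney tubules were counted at low levels in libraries of other tissues. The heart of treated male mouse 41 had 61.2 CPM of Umod, 101 of Kap, 30.9 of Slc12a1, 20 of Slc34a1 and 5.15 of Miox. The heart of treated mouse 58 had 14.3 CPM of Umod and 47.8 of Kap. Among control libraries the highest value of Kap was 29.6 CPM, in the gonadal fat of mouse 71, and the highest value of Umod was 7.38 CPM, in the heart of mouse 71. The skin of mouse 61 had 29.1 CPM of Kap and 10.9 of Miox. That library had the fewest usable counts of the control libraries used (201092), so both values rest on few counts. These genes were at a median of 0 to 1.5 CPM in control liver, gonadal fat and lung.

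Among listed genes that were too low for the comparison of tissues, Aqp6 was lower in male than in female control kidney. Aqp6, a channel of intercalated cells, ran from 12.27 to 63.3 CPM in the 6 female control kidneys and from 3.99 to 10.52 CPM in the 6 male ones, without overlap (male minus female -1.76 ± 0.50 on the log2 scale, adjusted p = 0.0301, edgeR). Slc22a13, an organic anion carrier, ran from 18.43 to 157.4 and from 3.94 to 63.79 CPM, with overlap, and did not pass the test (-1.31 ± 0.56, adjusted p = 0.134, edgeR).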
